A study of Mus musculus with 11 samples.

Results

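The 8 genes described here encode parts of the mitochondrial and death receptor routes of apoptosis: the adaptor Apaf1, cytochrome c (Cycs), the caspases Casp2, Casp6, Casp8 and Casp9, the inhibitor antagonist Diablo and the inhibitor of apoptosis Birc2. They were taken by mouse symbol from the 27179 genes of the count files, and all 8 were among the 14542 genes with enough counts to be tested. Expression was measured in brains, taken as far back as the rear edge of the otic vesicle, of 11 mouse embryos at embryonic day 9.5, by sequencing of polyadenylated RNA. All embryos were on a C57BL/6 background and all carried the Bim+/- genotype, so no group had both copies of the gene for the pro-apoptotic protein Bim. The genotype p53-/- Bim+/- was shared by 4 affected females and 4 control males, and p53+/+ Bim+/- was that of 3 control females. What "affected" stands for is left unsaid in the labels. As background, the neural tube defects of p53-null mice arise mainly in females.

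When a cell is committed to die by the mitochondrial route, cytochrome c leaves the mitochondria and binds Apaf1, which assembles into a wheel, the apoptosome, that recruits and activates the initiator caspase encoded by Casp9. The active initiator cuts effector caspases, which take the cell apart. Inhibitor of apoptosis proteins (IAPs) hold caspases or their activating complexes in check, and Diablo, also released from mitochondria, displaces IAPs. In the embryonic brain this route removes surplus progenitors and young neurons, and mice without Apaf1 or Casp9 are known for overgrown, often open brains.

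The libraries held 8211942 to 11218682 counts. Levels are CPM, the counts of a gene per 1000000 counts of its library, scaled by trimmed mean of M values (TMM), given for the embryos in the order of their replicate numbers, and each fold change is from the quasi-likelihood test of edgeR, its p adjusted by Benjamini-Hochberg over all 14542 tested genes. A gene is called where the adjusted p is under 0.05. The p53 genotype was checked with Ccng1, a direct p53 target, which lay at 21.8 to 33.5 CPM in the 8 p53-/- embryos and at 74.7 to 93.8 CPM in the 3 p53+/+ embryos. Among the p53-/- embryos Ccng1 was lower in affected females (21.8 to 24.5 CPM) than in control males (27.5 to 33.5 CPM). That difference was called (log2 fold change -0.39, adjusted p = 0.0203, edgeR) and lost its call in 3 of 21 alternative analyses. Neural progenitor markers summed to 682 to 940 CPM over the 11 libraries, with Sox2, Nes and Pax6 present in each. Single markers differed: of 8, in affected females 2 were called higher and 1 lower against control females. Against control males 1 was called lower and none higher. Fabp7 lay at 18.7 to 28.9 CPM in affected females, 42.0 to 76.2 in control males and 34.9 to 107 in control females. In the affected females, early neuron markers were lower, with 8 of 8 falling against control females and 6 of 8 against control males, and surface ectoderm markers were higher, with 6 of 6 and 5 of 6 rising. Mitochondrial transcripts made up 1.31% to 1.69% of the counts in affected females, 2.06% to 3.82% in control males and 2.48% to 4.99% in control females. Control female 1 differed from control females 2 and 3 in its marker sums. Early neuron markers stood at 116 CPM against 234 and 271, and surface ectoderm markers at 200 against 117 and 103. Primitive erythroid markers stood at 512 CPM against 4192 and 3984.

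Per base of the deposited gene length, Diablo and Casp2 were the most abundant of the 8 genes and Cycs the least. Levels per length (RPKM) are the CPM divided by that gene length in kilobases, given as mean ± SD over all 11 embryos. They were 41.3 ± 1.86 for Diablo and 38.5 ± 3.95 for Casp2. Diablo was the higher in 8 of 11 embryos, so this pair was not separated by its spread. Birc2 followed at 18.3 ± 4.46 and Casp6 at 16.1 ± 2.04, with Birc2 the higher in 7 of 11. Those 7 were the control embryos, and in the 4 affected females Casp6 was the higher. Apaf1 lay at 11.8 ± 1.72 and Casp9, its partner in the apoptosome, at 10.3 ± 1.24, with Apaf1 the higher in all 11 embryos although their ranges overlapped. Casp8 lay at 5.75 ± 0.977 and Cycs at 3.47 ± 0.599. The Cycs value is uncertain. Its coding sequence of 318 bases is matched at 90% identity or more, over at least 50% of its length, by 9 other genes of the GENCODE annotation, of which 8 are processed pseudogenes and 1, Gm10053, is annotated as coding and is identical over the whole length. The sources used here do not give how reads that fit several of these copies were counted. None of the 9 was found by symbol among the counted genes, so no count of them could be set beside that of Cycs. Diablo has 1 such look-alike, Gm49027, which was not found there either, and the other 6 genes have none.

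The question of the first comparison was how affected females differ from unaffected females that have p53. Of the 8 genes 2 were lower in affected females, Birc2 and Casp2, and none was higher. Of all tested genes, 28.0% were called in this comparison, 13.0% higher and 15.0% lower, so that 2 of 8 is near the background. Groups without overlap were found for 3 of the 8, Birc2, Casp2 and Casp9, and for 40.2% of all tested genes. The median log2 fold change of the 8 was 0.02 against -0.00488 for all tested genes. The second comparison set affected females against control males, which have the same genotype and differ in sex as well as in being affected. Here Apaf1 and Casp9 were higher and Birc2 lower, 3 of 8 genes against 20.2% of all tested genes (9.51% higher and 10.7% lower), with a median of -0.03 against -0.02. The same 3 genes as before, Birc2, Casp2 and Casp9, had groups without overlap, against 19.5% of all tested genes. Both comparisons use the same 4 affected females. In the third comparison, control males against control females, none of the 8 was called by edgeR, none had an unadjusted p under 0.05, and none was called by DESeq2 or limma voom. Of all tested genes, 0.144% were called there, 0.0481% higher and 0.0963% lower, and 5.54% had groups without overlap. None of the 8 had groups without overlap in that comparison.

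**Figure D1:**
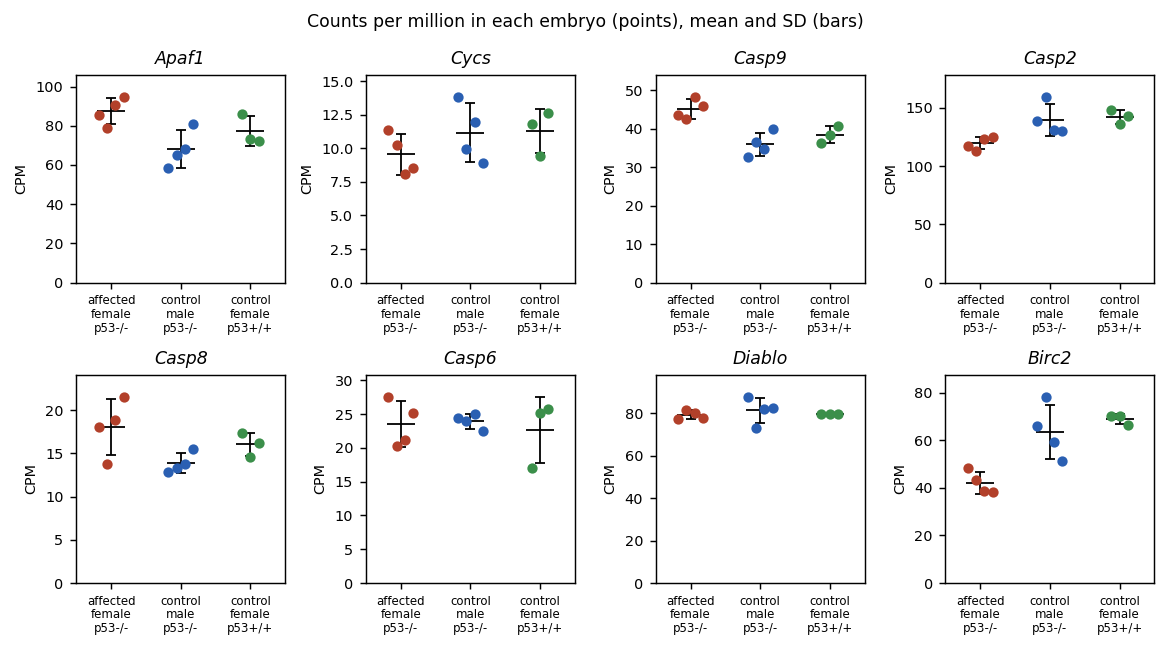
Levels in CPM (vertical axis, from 0) of the 8 genes in each embryo, with 4 affected females, 4 control males and 3 control females; points are embryos, the long bar is the mean and the whiskers are 1 SD. Birc2 lay between 38.5 and 48.4 CPM in affected females, below all 7 control embryos, whereas the 3 groups of Diablo overlapped.

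The upstream sequences of the 4 called genes are shown because these genes were called in at least 1 comparison, Apaf1 and Casp9 as higher and Casp2 and Birc2 as lower. They are the 250 bases before the RefSeq start listed first for each gene, which for Casp2 and Birc2 lies inside the outer bounds of the gene, 5′ to 3′ on the gene's strand, in the build GRCm38.p6. Capitals mark a match to an E2F word. The motifs were searched on both strands in the window from 250 bases before to 50 bases after the start, as the 8-letter E2F words TTTCCCGC, TTTCGCGC, TTTGCCGC and TTTGGCGC and as the p53 half-site.
Apaf1, chr10:91082744-91082993, minus strand: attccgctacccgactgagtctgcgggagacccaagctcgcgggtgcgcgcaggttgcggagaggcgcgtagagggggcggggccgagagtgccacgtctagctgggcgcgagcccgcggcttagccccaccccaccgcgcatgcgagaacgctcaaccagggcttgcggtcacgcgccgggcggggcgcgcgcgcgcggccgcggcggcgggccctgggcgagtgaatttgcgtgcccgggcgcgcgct
Casp9, chr4:141793362-141793611, plus strand: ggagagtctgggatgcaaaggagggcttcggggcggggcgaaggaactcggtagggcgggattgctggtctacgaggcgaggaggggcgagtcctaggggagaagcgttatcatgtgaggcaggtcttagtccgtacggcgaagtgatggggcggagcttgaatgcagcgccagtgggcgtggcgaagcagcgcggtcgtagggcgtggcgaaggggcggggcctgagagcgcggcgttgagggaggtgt
Casp2, chr6:42264735-42264984, plus strand: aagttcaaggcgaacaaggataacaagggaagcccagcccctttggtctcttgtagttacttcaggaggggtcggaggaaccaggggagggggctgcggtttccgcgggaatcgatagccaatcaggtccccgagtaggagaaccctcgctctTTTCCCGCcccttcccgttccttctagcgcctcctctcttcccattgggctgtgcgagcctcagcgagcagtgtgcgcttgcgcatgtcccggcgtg
Birc2, chr9:7837058-7837307, minus strand: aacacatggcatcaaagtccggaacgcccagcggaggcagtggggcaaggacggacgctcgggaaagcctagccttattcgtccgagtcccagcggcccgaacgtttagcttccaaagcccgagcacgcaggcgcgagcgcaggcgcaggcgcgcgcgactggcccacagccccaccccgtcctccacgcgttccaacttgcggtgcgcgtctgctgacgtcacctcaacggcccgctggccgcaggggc
Only Casp2 among the 8 genes had an E2F word, TTTCCCGC, whose first base lies at -97 from the start. Of 32851 RefSeq windows of the same length, 2.26% hold one of these words. The p53 half-site was found in none of the first windows of the 8 genes and once in a second RefSeq window of Birc2, at 11 bases after that start, against 8.36% of all windows. No match overlapped another. The windows held 46 CpG pairs for Apaf1, 34 for Birc2, 28 for Casp9 and 26 for Casp2, against a median of 7 over all windows. A match describes letters only, and nothing was measured on binding.

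Birc2 (chromosome 9, 7818226 to 7837131 in GRCm38) encodes cIAP1, a ubiquitin ligase that restrains the complexes through which death receptors activate the caspase encoded by Casp8. It had 48.4, 43.4, 38.6 and 38.5 CPM among the affected females, 65.8, 78.2, 59.4 and 51.2 among the control males and 70.4, 70.3 and 66.7 among the control females. Every affected female lay below every control embryo, and the control females lay close together while the control males spread over a wide range, with control male 4 the nearest to the affected females. Against control females the level was 1.64-fold lower (log2 fold change -0.71, SE 0.12, adjusted p = 0.00302, edgeR; means 42.2 ± 4.70 and 69.1 ± 2.13 CPM, n = 4 and 3). Against control males it was 1.51-fold lower (-0.59, SE 0.12, adjusted p = 0.00956, edgeR; control males 63.6 ± 11.4 CPM, n = 4). Of all tested genes, 9.69% had a lower log2 fold change than Birc2 against control females and 8.49% against control males. Control males and control females differed by -0.12 in log2 (95% interval -0.38 to 0.14), which was not called; these groups differ in p53 genotype and in sex, and the parts of the 2 cannot be told apart.

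The fall of Birc2 was called in each of the 21 alternative analyses for both comparisons, with log2 fold changes of -0.78 to -0.65 against control females and -0.68 to -0.48 against control males. In whole tissue, fewer cells that express a gene and less RNA per cell cannot be told apart. The early neuron markers that fell in affected females summed to 87.3 to 112 CPM there, against 157 to 277 CPM in control males and 116 to 271 CPM in control females. The surface ectoderm markers summed to 213 to 244 CPM among the affected females, 115 to 170 among the control males and 103 to 200 among the control females, and neural crest markers to 289 to 346, 225 to 262 and 197 to 217 CPM. Of the 6 neural crest markers, 5 were called higher against control females and 2 against control males. Ets1 averaged 152 CPM in affected females, 92.8 in control males and 79.2 in control females. Tfap2b averaged 65.0, 68.5 and 57.3 CPM in that order. The part of these cell types in the Birc2 difference was not tested. Macrophage markers were near the floor, with a sum of at most 6.03 CPM in any embryo and C1qa at 0 in all of them.

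Apaf1 (chromosome 10, 90989311 to 91082743), the scaffold of the apoptosome and a known p53 target, had 85.5, 79.1, 90.7 and 94.7 CPM among the affected females, 58.4, 65.1, 68.1 and 81.1 among the control males and 85.9, 73.5 and 72.2 among the control females. Control male 4 was the only control male inside the range of the affected females, and control female 1 the only control female inside it. Apaf1 was 1.28-fold higher in affected females than in control males (log2 fold change 0.36, SE 0.10, adjusted p = 0.0254, edgeR; means 87.5 ± 6.76 and 68.2 ± 9.5 CPM, n = 4 each). Against control females (77.2 ± 7.55 CPM, n = 3) the log2 fold change was 0.18 (SE 0.11, adjusted p = 0.214, edgeR). Control males stood at -0.18 relative to control females (95% interval -0.41 to 0.06), which was not called. The rise against control males was not called without affected female 3 (adjusted p = 0.0853), affected female 4 (0.078), control male 1 (0.0916), control male 2 (0.0662) or control male 3 (0.061), and it kept its direction in all 21 alternatives. Without control female 1 and control male 4 together, Apaf1 was called higher than in control females (0.27, adjusted p = 0.0338, edgeR). These libraries were chosen after the data were seen. Control female 1 was the highest control female for Apaf1, so leaving it out widens this gap by choice. That call therefore adds no separate evidence for a rise. Limma voom called Apaf1 against control females with all libraries (0.25, adjusted p = 0.0125). Of all genes, these alternatives called 5711 and 7639 in this comparison, against 4073 in the main fit.

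Casp9 (chromosome 4, 141793612 to 141815978) encodes the initiator that the apoptosome activates. It had 43.6, 42.6, 48.3 and 45.9 CPM among the affected females, 32.7, 36.5, 34.8 and 39.9 among the control males and 36.3, 38.5 and 40.7 among the control females. All 4 affected females lay above all 7 control embryos. Against control males the gene was 1.25-fold higher (0.33 in log2, SE 0.09, edgeR, adjusted p = 0.0208). Against control females it did not pass the threshold, where edgeR gave 0.23 ± 0.09 (SE) in log2 (adjusted p = 0.0765) and a 95% interval of 0.03 to 0.43, although limma voom called it (0.22, adjusted p = 0.0209). The call against control males was lost without affected female 3 (adjusted p = 0.0793), affected female 4 (0.0549), control male 1 (0.0754) or control male 3 (0.0561). Control males against control females gave -0.10 (95% interval -0.30 to 0.10).

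Apaf1 and Casp9 are long by the deposited gene length, at 6557 and 3896 bases, and long genes as a whole stood higher in affected females. With all tested genes put in 5 equal classes by length, the median log2 fold change against control males was -0.16 in class 1, the shortest, 0.02 in class 4, which holds Casp9, and 0.09 in class 5, which holds Apaf1. With this length trend removed, the values were 0.28 for Apaf1 (adjusted p = 0.0423, edgeR) and 0.30 for Casp9 (adjusted p = 0.0204, edgeR), both still called.

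Cycs (chromosome 6, 50562563 to 50566569), the released cytochrome c that triggers assembly, ranged from 8.11 to 11.4 CPM among the affected females, 8.91 to 13.8 among the control males and 9.43 to 12.6 among the control females. The 3 groups overlapped. The log2 fold changes in affected females were -0.24 against control females (95% interval -0.62 to 0.14) and -0.22 against control males (-0.57 to 0.13), neither called. These intervals are the widest of the 8 genes, at 87 to 147 counts per library. The mitochondrial share of the counts given above was lower in affected females, and its part in this value was not tested.

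Casp2 (chromosome 6, 42264902 to 42282508) encodes an initiator that is activated on a separate platform built by Pidd1 and Cradd, after DNA damage or extra centrosomes. It had 117, 113, 124 and 125 CPM among the affected females, 138, 159, 131 and 130 among the control males and 148, 136 and 143 among the control females. Every affected female lay below every control embryo, by a small margin against control males 3 and 4. The gene fell 1.19-fold against control females (log2 fold change -0.25, SE 0.09, adjusted p = 0.0445, edgeR; means 120 ± 5.48 and 142 ± 6.12 CPM). Against control males (140 ± 13.7 CPM) it stood at -0.22 (SE 0.08, adjusted p = 0.0615, edgeR) and was not called. The first call sat at the threshold and was lost in 12 of 21 alternatives. Among them were the omission of each of the 4 affected females, each of the 3 control females, and control males 1 and 3, with adjusted p from 0.0517 to 0.122 and log2 fold changes from -0.28 to -0.22. Against control males it was called in 4 alternatives: without control male 4 (-0.26, adjusted p = 0.0242, edgeR), without control female 1 and control male 4 together (-0.25, adjusted p = 0.0186, edgeR), with the length trend removed (-0.23, adjusted p = 0.0396, edgeR) and with limma voom (-0.15, adjusted p = 0.0443). In that order, these alternatives called 5140, 6014, 2836 and 6397 of all genes, against 2940 in the main fit. Control male 4 was the lowest control male for Casp2, so leaving it out widens this gap by choice. The calls without it therefore add no separate evidence for a fall. Control males against control females gave -0.03 (95% interval -0.21 to 0.16).

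Casp8 (chromosome 1, 58795233 to 58847503) encodes the initiator of the death receptor route. It had 18.0, 13.8, 18.8 and 21.5 CPM among the affected females, 12.8, 13.3, 13.8 and 15.5 among the control males and 17.3, 14.6 and 16.2 among the control females. Of the affected females 3 lay above all control embryos, while affected female 2 lay among the control males. The log2 fold change against control males was 0.38 (SE 0.13, adjusted p = 0.0563, edgeR), the size of that of Apaf1 with a wider error, and it was called without affected female 2 (0.49, adjusted p = 0.0246, edgeR), without control male 4 (0.44, adjusted p = 0.0267, edgeR) and without control female 1 (0.38, adjusted p = 0.0477, edgeR). DESeq2 (0.39, adjusted p = 0.0484) and limma voom (0.39, adjusted p = 0.00798) called it too, as did edgeR without control female 1 and control male 4 together (0.44, adjusted p = 0.018) and with the replicate number as a block (0.37, adjusted p = 0.0392). Of all genes, limma voom called 6397 here and edgeR 6014 without those controls, against 2940 in the main fit. Affected female 2 was the lowest affected female for Casp8 and control male 4 the highest control male. Leaving out either therefore widens the gap to control males by choice, and those calls add no separate evidence for a rise. In the other 14 of 21 alternatives Casp8 was not called (adjusted p up to 0.18, edgeR). Against control females it stood at 0.17 (95% interval -0.14 to 0.48).

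Casp6 (chromosome 3, 129901415 to 129914112), an effector caspase gene, ranged from 20.3 to 27.5 CPM among the affected females, 22.4 to 25.1 among the control males and 17.1 to 25.8 among the control females. The low value belonged to control female 1, and the groups overlapped in all 3 comparisons. Log2 fold changes were 0.05 against control females (95% interval -0.26 to 0.36) and -0.02 against control males (-0.31 to 0.26). Diablo (chromosome 5, 123511330 to 123524164), the IAP antagonist, was the steadiest of the 8 genes. It ranged from 77.5 to 81.7 CPM in affected females and from 73.1 to 87.6 CPM in control males, and the 3 control females had 79.8, 79.6 and 79.4 CPM. Its log2 fold changes were -0.01 against control females (95% interval -0.17 to 0.16) and -0.04 against control males (-0.19 to 0.12). The gene overlaps B3gnt4 over 553 bases, which held 168 counts over all 11 libraries against 8861 for Diablo.

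**Figure D2:**
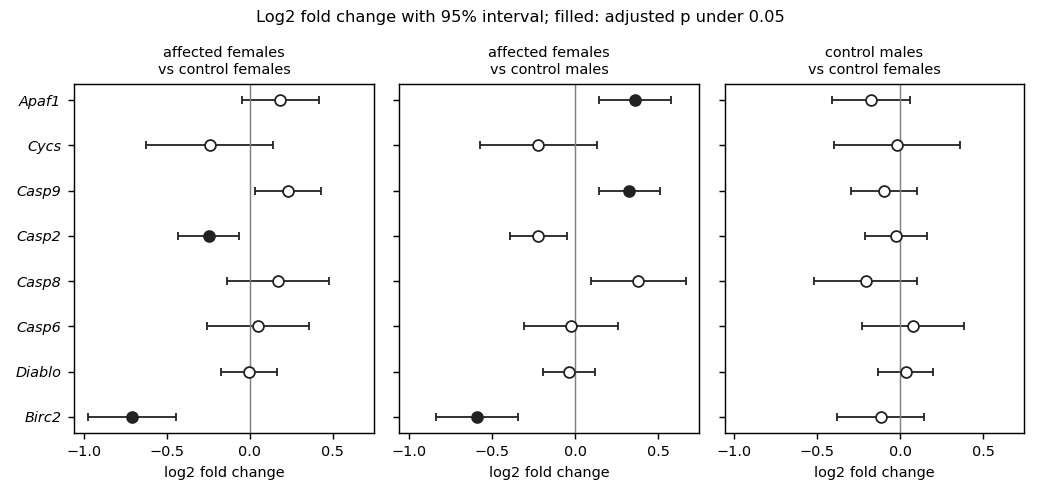
Log2 fold change (horizontal axis) of the 8 genes in the 3 comparisons, with 95% intervals from edgeR; filled points have an adjusted p under 0.05. Birc2 is filled on the left and in the middle, Casp2 on the left alone, Apaf1 and Casp9 in the middle alone, and no point on the right.

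Because some of the 8 genes stood higher and others lower in the same embryos, pairs were also set against each other within each library, which leaves library scaling almost without effect. These pairs were chosen after their values were seen and carry no test. A gene seen to be low set against one seen to be high gives a wider gap by choice. Log2 CPM of Birc2 minus that of Apaf1 was -0.82, -0.86, -1.23 and -1.30 in the affected females, 0.17, 0.26, -0.20 and -0.66 in the control males and -0.29, -0.06 and -0.12 in the control females. The affected females thus had about 1 log2 unit less Birc2 per Apaf1 (mean -1.05 ± 0.24) than control males (-0.11 ± 0.42) and control females (-0.16 ± 0.12), with control male 4 closest to them. Log2 CPM of Casp2 minus that of Casp9, the genes of the 2 initiators with separate platforms, ranged from 1.35 to 1.44 in affected females, 1.70 to 2.12 in control males and 1.81 to 2.02 in control females. Birc2 was also set against Casp9 and Xiap, where affected females lay below all controls, and against Diablo, where they overlapped control males. Birc2 minus Diablo ranged from -1.05 to -0.68 in affected females, -0.69 to 0.10 in control males and -0.25 to -0.18 in control females.

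**Figure D3:**
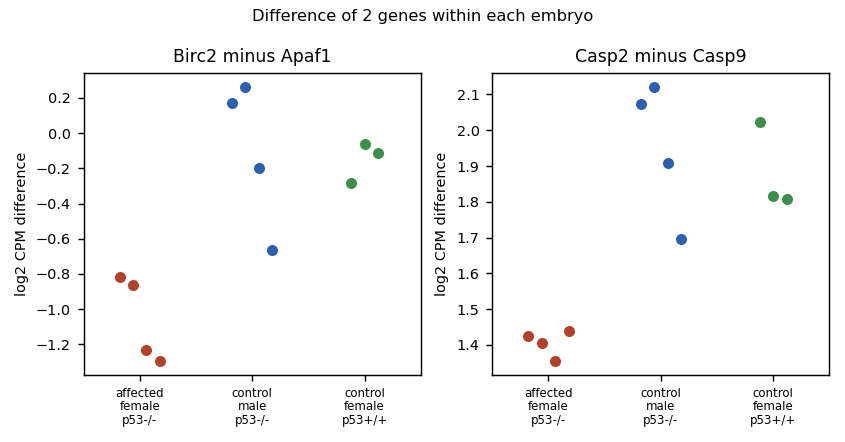
Difference in log2 CPM between Birc2 and Apaf1 (left) and between Casp2 and Casp9 (right) within each embryo, 1 point per embryo by group; the vertical axes do not start at 0. The 4 affected females lie below all control embryos in both panels, with control male 4 the nearest control.

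The genes whose level followed each member most closely over the 11 embryos were sought among 8663 others whose log2 CPM averaged 4 or more, by the root mean square difference of log2 CPM after centring each gene on its mean. For Birc2, which itself varied by 0.35 about its mean, these were Sema3f (0.0796), Tmem68 (0.0851) and Cdc7 (0.0858). Sema3f, which encodes a secreted guidance factor, averaged 24.3 CPM in affected females, 39.9 in control males and 42.0 in control females. For Apaf1 they were Usp22 (0.0392), Gphn (0.0527) and Pcm1 (0.0533), and for Casp9 they were Zmym4 (0.0459), Gpc6 (0.0475) and 9930021J03Rik (0.0491). Usp22 averaged 310 CPM in affected females, 239 in control males and 262 in control females. For Casp2 the nearest were Taf4 (0.0513), Klhl7 (0.0553) and Sec63 (0.0568).

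The wider pathway was read from lists of 39 other genes in 7 roles, of which 27 had enough counts to be tested. Against control females, 5 rose and 2 fell in affected females (7 of 27, beside 13.0% of all tested genes called higher and 15.0% lower), with a median log2 fold change of 0.16 against -0.00488 for all tested genes. Against control males, 4 rose and 2 fell (beside 9.51% and 10.7% of all tested genes), with a median of 0.10 against -0.02. Between control males and control females none of the 27 was called by edgeR or DESeq2, 1 had an unadjusted p under 0.05, and limma voom called 2.

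The inflammatory caspase genes Casp1, Casp4 and Casp12 and the skin caspase gene Casp14 had at most 5 counts over all 11 libraries.

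Of the other IAPs, 4 of 9 were tested and 1 rose in both comparisons. This was Birc6, which encodes a giant ubiquitin-conjugating member of the family and moved opposite to Birc2. It had 251, 257, 265 and 279 CPM among the affected females, 157, 179, 189 and 207 among the control males and 239, 185 and 183 among the control females, with all affected females above all controls. The log2 fold changes were 0.38 (SE 0.11, adjusted p = 0.0227, edgeR) against control females and 0.53 (SE 0.10, adjusted p = 0.00956, edgeR) against control males. Birc6 is a long gene, with 16212 bases, and stood at 0.42 and 0.37 with the length trend removed (adjusted p = 0.00985 and 0.0198, edgeR). Xiap, a direct inhibitor of the caspase encoded by Casp9, ranged from 162 to 186 CPM among the affected females, 150 to 166 among the control males and 145 to 168 among the control females, and was not called (0.14, 95% interval -0.04 to 0.31, against control females). Birc5, which encodes the mitotic protein survivin, was not called either, at 146 ± 10.8 CPM in affected females, 173 ± 12.3 in control males and 172 ± 14.5 in control females. All affected females lay below all controls, and the adjusted p was 0.0571 against control females and 0.0522 against control males (edgeR). It was named after its values were seen.

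Of the 2 tested IAP antagonists besides Diablo, 1 fell in affected females, the mitochondrial protease gene Htra2. It had 18.9, 19.6, 18.1 and 17.5 CPM there, 25.2, 25.0, 23.0 and 21.1 among the control males and 23.4, 24.8 and 24.2 among the control females. The affected females lay below both control groups, which overlapped each other, and the log2 fold changes were -0.38 (SE 0.10, adjusted p = 0.0166, edgeR) against control females and -0.35 (SE 0.10, adjusted p = 0.0244, edgeR) against control males. Of the 3 tested genes listed with cytochrome c and its release, 1 rose in both comparisons: Aifm1, an X-linked gene for a flavoprotein of the mitochondrial intermembrane space that can move to the nucleus in dying cells. It had 82.3, 100, 88.6 and 89.4 CPM among the affected females, 69.7 to 79.5 among the control males and 65.1 to 69.2 among the control females. Its log2 fold changes were 0.42 (SE 0.09, adjusted p = 0.00602, edgeR) and 0.27 (SE 0.08, adjusted p = 0.0308, edgeR).

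Of the 8 tested genes of the initiator platforms, 1 rose and 1 fell against control females and 1 fell against control males. Pidd1 and Fadd moved in opposite directions against control females. Pidd1, the p53-inducible scaffold on which the Casp2 product is activated, had 17.2, 14.3, 13.6 and 13.8 CPM among the affected females, 23.6, 25.4, 22.7 and 15.3 among the control males and 24.1, 24.2 and 19.2 among the control females. Control male 4 alone among the controls lay inside the range of the affected females. The log2 fold changes were -0.61 (SE 0.16, adjusted p = 0.0156, edgeR) against control females and -0.56 (SE 0.15, adjusted p = 0.0225, edgeR) against control males. Fadd, the adaptor that joins death receptors to the Casp8 product, stood at 18.3 ± 1.83 CPM among the affected females, 15.3 ± 3.15 among the control males and 10.9 ± 2.59 among the control females. It rose against control females (0.74, SE 0.18, adjusted p = 0.011, edgeR) and was not called against control males (0.26, SE 0.16, adjusted p = 0.254, edgeR).

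Of 4 regulators of the apoptosome, 1 rose against control females, Anp32a, a promoter of apoptosome activity (0.43, SE 0.13, adjusted p = 0.0266, edgeR), and none was called against control males, where Anp32a stood at 0.29 (adjusted p = 0.0937, edgeR) and control male 4, at 616 CPM, lay inside the affected range of 574 to 644 CPM. Of 6 caspase substrates, 1 rose against control females and 2 against control males, beside 13.0% and 9.51% of all tested genes called higher. Parp1, a DNA repair enzyme that effector caspases cut, rose in both comparisons, at 578 ± 38.2 CPM among the affected females, 416 ± 98.6 among the control males and 407 ± 47.4 among the control females (0.51 and 0.48, adjusted p = 0.0225 and 0.027, edgeR). Rock1, a kinase that caspase cleavage activates, rose against control males (0.27, SE 0.09, adjusted p = 0.0471, edgeR) and was not called against control females (0.27, adjusted p = 0.0544, edgeR). Control male 4 alone among the controls lay inside the affected range of both genes. It had 552 CPM of Parp1 (affected range 538 to 623) and 114 CPM of Rock1 (109 to 124).

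Many of these calls were lost when any of several embryos was left out, while the direction of the fold change stayed the same. Against control females, Birc6, Anp32a and Parp1 were not called without affected female 3, affected female 4, control female 2 or control female 3 (adjusted p = 0.0535 to 0.112, edgeR). The log2 fold changes were then 0.31 to 0.37 for Birc6, 0.37 to 0.44 for Anp32a and 0.44 to 0.48 for Parp1. Htra2 was not called without control female 2 or 3 (0.0647 and 0.0593), nor Pidd1 without control female 2 (0.0663). Against control males, Htra2, Aifm1, Pidd1 and Parp1 were not called without affected female 3, affected female 4, or control male 1, 2 or 3 (0.0508 to 0.0988), and Aifm1 also not without affected female 2 (0.081). The log2 fold changes were then -0.36 to -0.31 for Htra2, 0.22 to 0.30 for Aifm1, -0.54 to -0.48 for Pidd1 and 0.39 to 0.48 for Parp1. Rock1 lost its call in 12 of 21 alternatives, 9 of them the omission of 1 embryo (0.0568 to 0.15), namely each affected female, control males 1 to 3 and control females 2 and 3. The others were no filter on low counts (0.0534), the libraries of the 2 groups alone (0.0637) and removal of the length trend (0.20, adjusted p = 0.096, edgeR), Rock1 having 6187 bases.

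**Figure D4:**
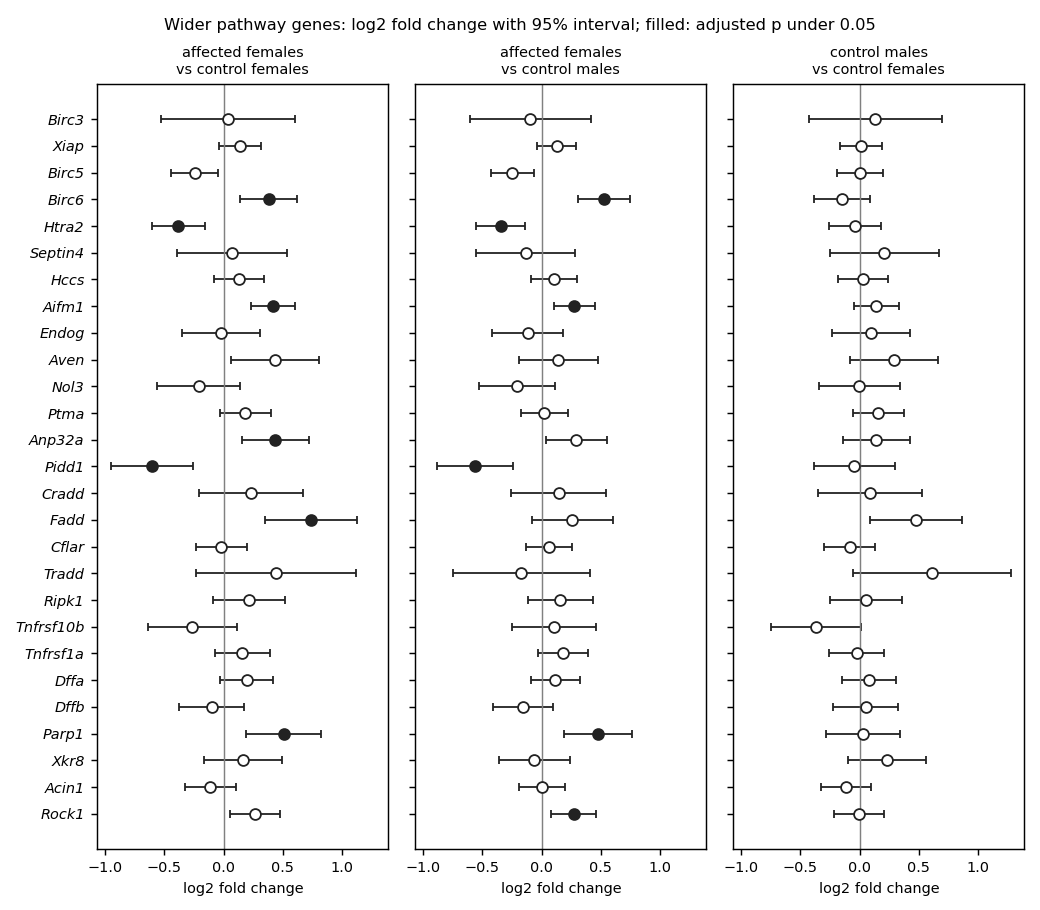
Log2 fold change (horizontal axis) of the 27 tested genes of the wider pathway in the 3 comparisons, with 95% intervals from edgeR; filled points have an adjusted p under 0.05. The left panel has 7 filled points, the middle panel 6 and the right panel none.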

How the data were processed

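Per the labels' protocols, RNA was isolated with a column kit and sequenced from TruSeq libraries on an Illumina HiSeq instrument. The authors deposited raw counts per Entrez gene, with gene lengths, for each embryo; per the submitters' processing notes these came from featureCounts on mm10. Not given in the sources used here are the aligner, the strand setting and the release of the annotation. Groups and replicate numbers follow the sample titles, and no batch, litter or date is in the labels. Entrez identifiers were matched to symbols and coordinates with the RefSeq table of GRCm38.p6, which matched 25275 of 27179; 1904 had no symbol. Upstream sequences come from RefSeq in the same build.

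After filterByExpr and TMM scaling, edgeR 4.0.16 (R 4.3.3) fitted its quasi-likelihood model once to the 11 libraries, with the group as the only factor. The biological coefficient of variation was 11.9%. Intervals use the fit's t quantile at 95%. Log2 CPM used a prior count of 2. The fit was also run on simulated counts drawn from its own means and spread, with known changes in a small part of the genes. Such counts cannot show how the fit behaves where far more genes are called, as in both comparisons with affected females. No library was a duplicate of another of its group (chi-square over degrees of freedom 2.73 to 31.6). The series-wide table was not used here. The alternatives tried were scaling by RLE, TMM over autosomes alone, other filters, DESeq2 1.42.0, limma 3.58.1 voom with sample weights, fits of 2 groups alone, the replicate number as a block and omission of each library. Chosen only after seeing the data were the removal of the length trend, the fit that leaves out both control female 1 and control male 4, and those for the wider lists. The members and lists were chosen with earlier results of these data known. The text names all 8 members, the wider genes called in any comparison, and Xiap. Birc5 and the untested caspase genes were named after their values were seen. Some genes of the wider lists are not reported here.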

Additional observations from a re-analysis of the deposited data

How the results depend on the processing

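The totals of called genes were 4073 for affected against control females (1663 to 4957 leaving out 1 library), 2940 for affected females against control males (361 to 5140) and 21 for control males against control females (18 to 35). The first total fell by over 1.5 times without affected female 3 (1967), affected female 4 (2605), control female 2 (1924) or control female 3 (1663). The second fell so without affected female 3 (361), affected female 4 (1174), control male 1 (658), control male 2 (1132) or control male 3 (1470), and rose without control male 4 (5140). Leaving out 1 library gave 1 to 2, 1 to 5 and 0 to 0 called members, and 2 to 10, 1 to 8 and 0 to 0 called genes of the wider lists (7, 6 and 0 in the report). Limma voom with sample weights gave 7639, 6397 and 1569 called genes, 4 and 6 called members, and 14 and 2 wider genes for affected against control females and for control males against control females. Without control female 1 and control male 4 together, affected females against control males gave 6014 genes, 5 members and 10 wider genes, and 11 wider genes were called against control females. DESeq2 called 39 genes between control males and control females. With no filter on low counts, 1 member was called against control females. The replicate number as a block also gave 1 there, with Casp2 (adjusted p = 0.0923) and Birc6 (0.0515, edgeR) not called, and it called Casp8 against control males (0.0392). Deviations of same-numbered embryos had correlations from -0.25 to 0.31. Differently numbered embryos were not compared, so these values cannot tell whether the number marks a pairing. The labels name no litter or batch, and the number was not taken as a pairing.

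Among the 8 genes and Xiap, signs changed only for values called neither in the report nor under the alternative. Against control females, Diablo stood at 0.0056 with no filter, 0.0034 with DESeq2 and 0.015 with the length trend removed. Casp6 stood at -0.10 with voom and -0.11 without the 2 control libraries. Against control males, with the length trend removed, Casp6 and Diablo stood at 0.062 and 0.015. Between control males and control females, Cycs stood at 0.14 with voom, 0.043 with the replicate block and 0.11 without the 2 control libraries, Casp6 at -0.0035 and -0.055 with voom and without them, and Casp2 at 0.037 without them. Leaving out 1 library, Casp6 ranged from -0.11 to 0.15 and Diablo from -0.020 to 0.0048 against control females, and Casp6 from -0.11 to 0.039 against control males. Between control males and control females, Cycs ranged from -0.14 to 0.076, Casp2 from -0.10 to 0.0071, Casp6 from -0.087 to 0.18 and Diablo from -0.0065 to 0.075. The causes were not tested. Precision is limited by 3 or 4 embryos a group. Cycs had 87 to 147 counts per library and the widest intervals of the 8 genes, and the source of that width was not tested.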
